A study of Mus musculus with 25 samples.

Results

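The 32 genes described here encode the enzymes and regulators of sterol and fatty acid synthesis, from acetyl-CoA production to triglyceride assembly. They were selected by symbol from the 46078 rows of the raw count table, in which all 32 were found, and their RNA was followed through group 1 innate lymphoid cells (G1-ILCs), the cells that comprise NK cells and type 1 ILCs (ILC1s). Bulk RNA-seq covered 25 libraries in 8 groups, all sorted as CD3- NK1.1+ NKp46+ cells from wild-type C57BL/6 mice, the strain as the labels spell it. The labels name no treatment, and the study's methods say that mice of several experiments, which they do not name, received a nanobody that blocks ARTC2.2 shortly before sacrifice. FL G1-ILCs (4 libraries, CD49a int CD49b int) came from livers of E18.5 fetuses and the other groups from adults 8 weeks old. Adult liver gave IL-7R- and IL-7R+ ILC1s (AL 7R- ILC1s, 4 libraries, and AL 7R+ ILC1s, 3 libraries, both CD49a+ CD49b lo) and AL NK cells (2 libraries, CD49a- CD49b+). Bone marrow gave BM iILC1s, the immature ILC1s (3 libraries, CD49a+ CD49b lo), and BM NK cells (3 libraries, CD49a- CD49b+). LPL ILC1s (4 libraries) were CD27+ IL-7R+ cells of the small intestinal lamina propria, a gate without CD49a, and SG G1-ILCs (2 libraries) were CD49a+ CD49b+ cells of the salivary gland. The labels do not say which libraries came from separate or pooled animals, so the p-values below measure the spread between these samples, part of which may be technical.

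Cells make cholesterol and fatty acids from the same cytosolic acetyl-CoA. Transcription of both routes is driven by the SREBP factors, encoded by *Srebf1* and *Srebf2*. SREBP precursors are held in the endoplasmic reticulum by INSIG proteins while sterols are plentiful. When sterols run low, SCAP carries them to the Golgi, where they are cut, and the released factors act in the nucleus at sterol response elements, usually together with NF-Y and Sp1. The RNA of an SREBP gene therefore does not by itself report the activity of its protein. Dividing lymphocytes draw on these routes for membranes.

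The promoters of 23 of the 32 genes were at hand as RefSeq windows, from 250 bases before to 50 bases after each start, on build GRCm38.p6. *Stard4*, *Scd2*, *Fdps*, *Sqle*, *Fdft1*, *Scd1*, *Dgat2*, *Dgat1* and *Fads1* had none. Both strands were searched for 4 sets of letters, and sites of different sets were allowed to overlap. The sterol response element letters TCACNCCAC were in 1 window, that of *Hmgcs1*, and in 1.24% of all 32851 windows of the same length. Some genes had several starts, so the 23 genes had 30 windows. The NF-Y letters CCAAT were in 20 of these 30 windows (19 of the 23 genes) and in 37.4% of all windows. The Sp1 letters GGGCGG were in 22 of the 30 (18 genes) and in 35.7% of all windows. The E-box CACGTG was in 6 of the 30 (*Dhcr7*, *Elovl5*, *Insig1*, *Sc5d* and *Scap*) and in 7.15% of all windows. These matches describe letters only, and the shares were not tested.

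Stretches of 150 bases from 5 of these windows are printed because the genes went different ways between the groups. *Hmgcs1* and *Mvk* were higher and *Fasn* and *Mvd* lower in intestinal ILC1s, and *Sc5d* was the only member that differed between AL 7R+ and AL 7R- ILC1s. Capitals mark the sterol response element letters and CCAAT, read on either strand (ATTGG on the other).
Hmgcs1, chr13:119690201-119690350, plus strand: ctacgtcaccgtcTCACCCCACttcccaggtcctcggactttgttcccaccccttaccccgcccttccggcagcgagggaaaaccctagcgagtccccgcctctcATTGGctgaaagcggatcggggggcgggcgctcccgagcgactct
Mvk, chr5:114444119-114444268, plus strand: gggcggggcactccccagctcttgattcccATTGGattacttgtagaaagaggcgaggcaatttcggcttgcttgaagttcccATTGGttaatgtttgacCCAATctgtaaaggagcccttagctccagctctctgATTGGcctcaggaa
Mvd, chr8:122443423-122443572, minus strand: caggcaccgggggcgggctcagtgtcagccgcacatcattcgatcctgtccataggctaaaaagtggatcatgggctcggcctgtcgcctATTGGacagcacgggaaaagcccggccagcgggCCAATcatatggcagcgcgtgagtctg
Sc5d, chr9:42264301-42264450, minus strand: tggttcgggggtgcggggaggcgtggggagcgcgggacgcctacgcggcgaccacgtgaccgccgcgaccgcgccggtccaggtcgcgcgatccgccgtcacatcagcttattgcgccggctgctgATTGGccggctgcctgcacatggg
Fasn, chr11:120824548-120824697, minus strand: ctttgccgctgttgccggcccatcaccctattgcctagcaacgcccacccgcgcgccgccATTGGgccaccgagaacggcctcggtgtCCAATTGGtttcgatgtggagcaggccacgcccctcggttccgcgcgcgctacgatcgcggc
The sterol response element letters of *Hmgcs1* began at position -137, counting the annotated start as 0. *Sc5d*, *Mvd*, *Mvk* and *Fasn* carried CCAAT without those exact letters in the window, and variants of the letters were not searched.

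Library totals were 2302643 to 7995906 counts (median 4603579). FL replicates 2 and 3 differed by no more than sampling noise (chi-square per degree of freedom 1.172, against 3.379 to 10.74 in the other pairs) and were summed as 1 sample, which left 24. The ILC1 marker list summed to 1003 to 3685 CPM, scaled read counts that allow libraries of different depth to be compared, in the means of the ILC1, FL and SG groups and to 28.7 in AL NK and 34.1 in BM NK cells. The NK cell list summed to 6173 in AL NK and 4449 in BM NK cells, to 200.5 to 621.5 in FL and in the liver and marrow ILC1s, to 1865 in LPL and to 3244 in SG samples. Adipocyte markers, from a cell type with high lipid synthesis, stayed at or below a mean of 2.9. RNA levels are TMM-scaled CPM, and a gene was called when the adjusted p of edgeR's quasi-likelihood test, across 14123 genes, was below 0.05. In bulk RNA, fewer cells that express a gene cannot be told apart from less RNA per cell.

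Of the 32 genes, 30 passed the filter on low counts and 28 of these differed between the groups in one test over all 8, where 77.6% of all tested genes did. *Fdps*, which makes farnesyl diphosphate (group means 1.42 to 4.09 CPM, adjusted p = 0.346), and *Nsdhl*, a sterol dehydrogenase (17.98 to 22.8 CPM, adjusted p = 0.978), did not pass. *Fdps* shares 26.7% of its exon bases with an overlapping gene model. Of the 50-base words of *Acaca* 30.4%, and of those of *Idi1* 17.7%, recur in other genes. The levels of these genes are therefore uncertain. Antisense gene models cover 18.3% of the exon bases of *Fdft1*, 13.2% of those of *Scap* and 12.1% of those of *Hmgcs1*. For *Idi1* the share was 9.22% and for *Acss2* 9.12%. The library kit does not mark strand, so reads in these bases cannot be assigned by strand. The widest spans were in *Dgat1*, the last enzyme of triglyceride synthesis (129-fold from the lowest to the highest group mean), *Scd2*, a stearoyl-CoA desaturase (56.4-fold), *Sqle*, squalene epoxidase (20.5-fold), *Mvk*, mevalonate kinase (17.6-fold), *Cyp51*, lanosterol demethylase (12.7-fold), and *Acss2*, which makes acetyl-CoA from acetate (12.6-fold). The highest group mean was that of FL G1-ILCs for 11 genes and of LPL ILC1s for another 11. All FL samples stood above all other samples for *Pmvk*, *Srebf1*, *Acaca*, *Fasn*, *Scd2* and *Fads1*, and all LPL samples for *Mvk*, *Sqle*, *Msmo1*, *Elovl5*, *Dgat1* and *Stard4*. Of all tested genes, 11.1% were called higher in FL with every FL sample above every adult sample. The matching shares for LPL samples and for highest group means were not computed, so these counts only describe the set.

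The other genes had narrower spans between their lowest and highest group means. On the way to squalene these were *Hmgcs1* (29.9 to 101), *Pmvk* (4.01 to 25.2), *Mvd* (10.3 to 45.8), *Idi1* (3.88 to 26.6) and *Fdft1* (8.79 to 34.8 CPM). After squalene they were *Lss* (18.1 to 51.8), *Msmo1* (25.3 to 69.6), *Sc5d* (37.9 to 119) and *Dhcr7* (12.6 to 26.6 CPM). The regulators and the carrier spanned 11.3 to 89.7 (*Insig1*), 79.7 to 201 (*Srebf1*), 70.8 to 205 (*Srebf2*), 34.4 to 70.7 (*Scap*) and 16.3 to 126 CPM (*Stard4*). In fatty acid synthesis and remodelling they were *Acaca* (13.98 to 47.8), *Fasn* (64.5 to 319), *Fads1* (3.12 to 24.4), *Elovl1* (92.9 to 165), *Elovl5* (83.8 to 567) and *Elovl6* (28.2 to 57.6 CPM).

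**Figure D1:**
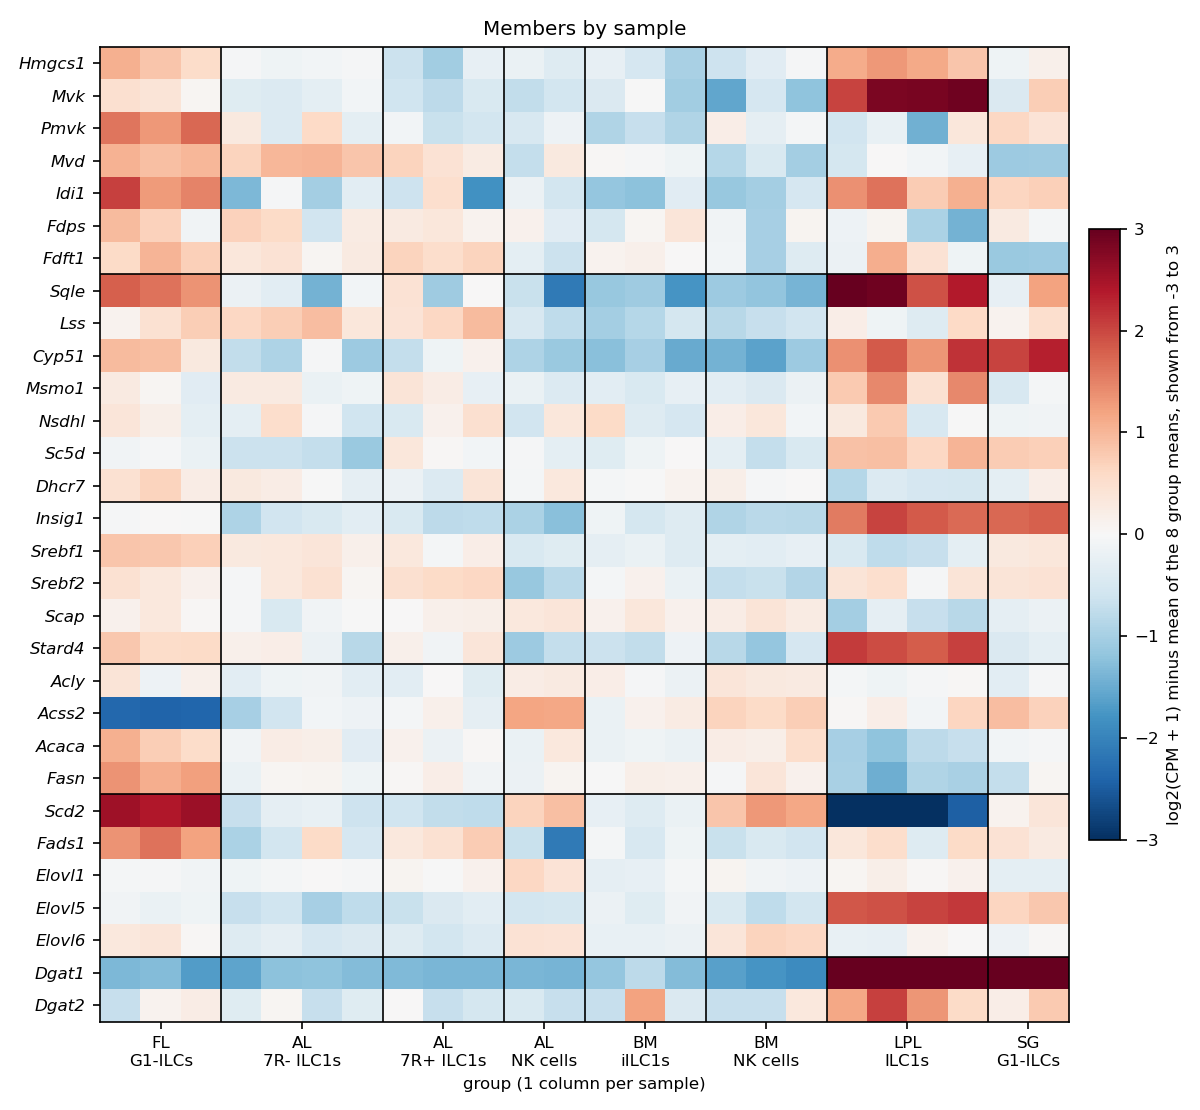
Level of the 30 tested genes (rows) in the 24 samples (columns), as log2(CPM + 1) minus the mean of the 8 group means, with colours limited to -3 and 3. The FL columns are high for *Fasn*, *Acaca*, *Scd2* and *Fads1* and low for *Acss2*. The LPL columns are high for several sterol genes, *Elovl5* and *Dgat1* and low for *Scd2*, *Fasn* and *Acaca*.

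In both pairs of neighbouring paralogues, 1 gene was close to 0. *Scd2* and *Scd1* lie close together on chromosome 19 (44293674 to 44306864 and 44394455 to 44407879, GRCm38), and so do *Fads1* and *Fads2* (10182888 to 10196877 and 10062765 to 10101746). *Scd1* stayed at means of 0.199 to 1.70 CPM and *Fads2*, the other front-end desaturase, at 0.0556 to 0.564 CPM, so neither was tested. *Dgat2*, which catalyses the same step as *Dgat1*, reached at most 3.20 CPM. Per kilobase of exon, *Dgat1* in LPL ILC1s averaged 1865 CPM, *Elovl5* in the same cells 161 and *Scd2* in FL G1-ILCs 63.1. *Acly*, ATP citrate lyase, kept a high and even level, with means of 247 to 355 CPM.

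**Figure D2:**
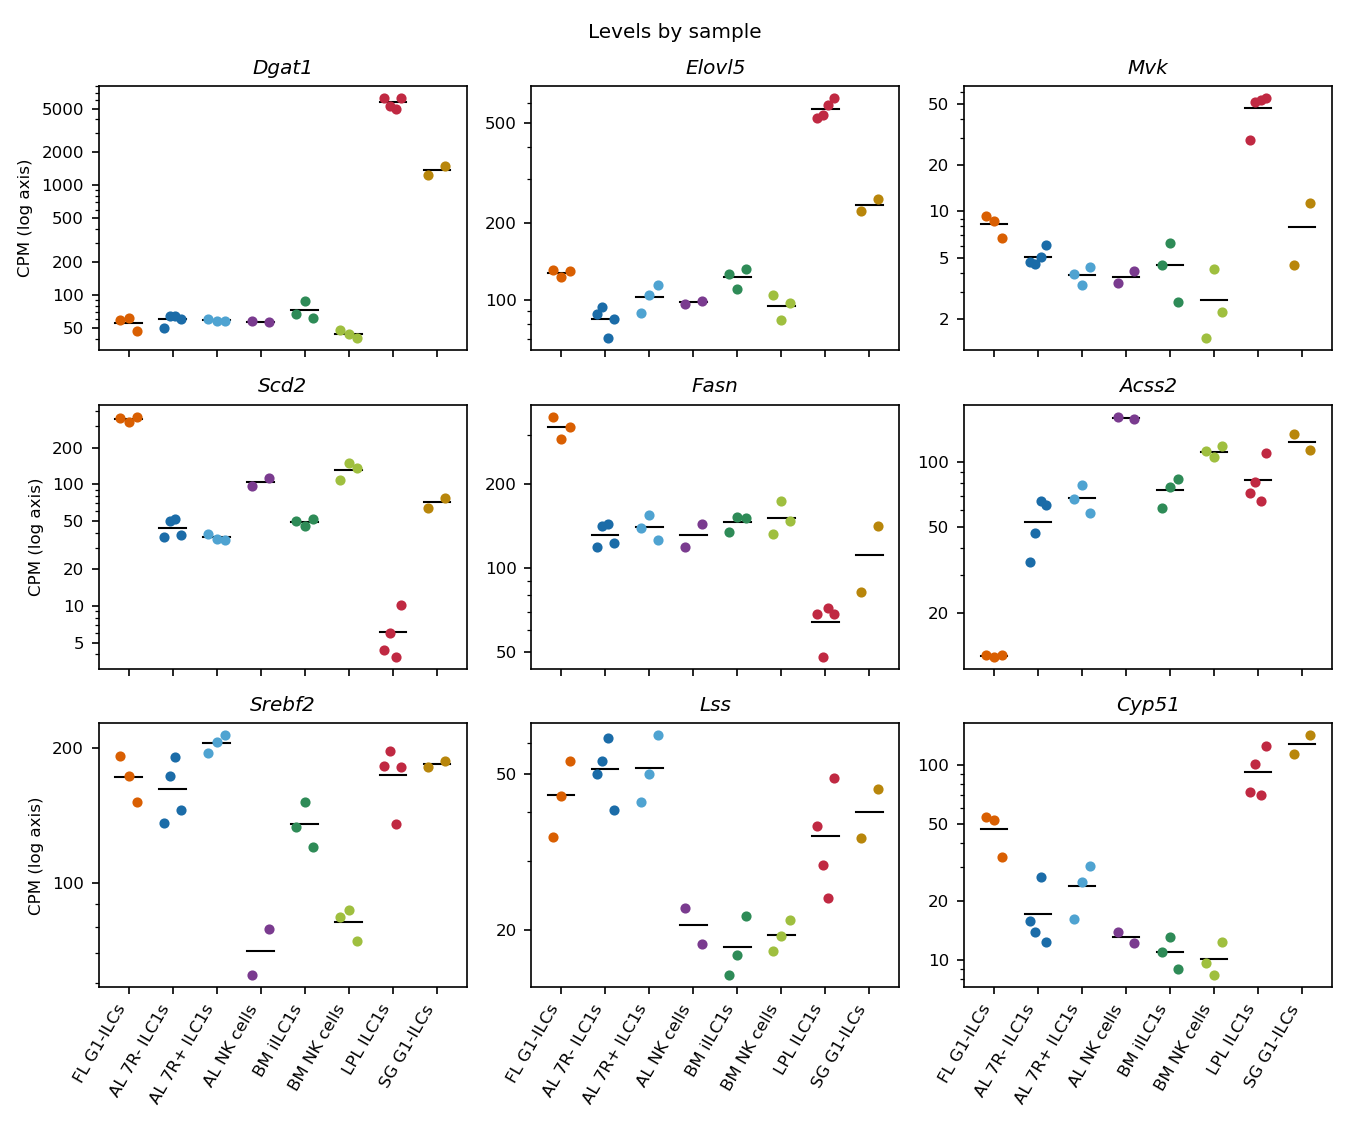
Level of 9 genes in every sample (points; CPM, log axis) by group, with the group mean as a bar. *Dgat1* and *Elovl5* are highest in LPL and then SG samples, *Scd2* and *Fasn* are highest in FL and lowest in LPL samples, and *Acss2* is lowest in FL samples.

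Fetal liver cells were compared with AL 7R- ILC1s, and 16 of the 30 genes were higher and 1 lower, where 22.4% of all tested genes were higher and 20% lower. The median log2 fold change of the genes was 0.58, and that of all tested genes was -0.061 here and between -0.03 and 0.02 in the other comparisons. The higher genes came from every stage but the triglyceride step: 3 of 7 from HMG-CoA to squalene, 3 of 7 from squalene to sterol, 3 of 5 regulators and carriers, 3 of 4 enzymes of acetyl-CoA and fatty acid synthesis, and 4 of the 5 elongases and desaturases tested. Of the 16 higher genes 15 were without overlap between the groups, and so was *Acss2*, the lower one. Of all genes, 2972 (21%) were called higher and 2536 (18%) lower without overlap.

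*Scd2* showed the largest difference among the desaturases. It measured 352, 323 and 359 CPM in the FL samples and 36.8, 49.6, 51.5 and 38.4 in AL 7R- ILC1s (log2 fold change 2.96, SE 0.16, adjusted p = 3.19e-14). The lowest FL sample was thus far above the highest liver sample. *Fads1* measured 23.2, 28.8 and 21.1 CPM in FL and 3.98, 5.56, 13.2 and 5.78 in AL 7R- ILC1s (log2 fold change 1.74, SE 0.37, adjusted p = 2.90e-04), again without overlap. *Fasn*, fatty acid synthase, measured 348, 289 and 319 CPM in FL against 119, 141, 144 and 123 (log2 fold change 1.27, SE 0.14, adjusted p = 2.78e-08). *Acaca*, acetyl-CoA carboxylase, which supplies its malonyl-CoA, was also higher (log2 fold change 0.81, adjusted p = 0.00116), as was *Elovl6*, the palmitate elongase (0.66, adjusted p = 6.63e-04).

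In the mevalonate and sterol route, *Idi1*, the isopentenyl diphosphate isomerase, measured 35.7, 20.4 and 23.7 CPM in FL and 2.49, 7.59, 3.33 and 6.03 in AL 7R- ILC1s (log2 fold change 2.44, SE 0.45, adjusted p = 6.07e-05). *Sqle* measured 32.2, 28.5 and 23.5 against 7.46, 6.74, 2.60 and 8.04 CPM (log2 fold change 2.21, SE 0.42, adjusted p = 8.18e-05). *Pmvk*, phosphomevalonate kinase, measured 26.0, 21.1 and 28.5 against 9.94, 5.73, 12.4 and 6.28 CPM (log2 fold change 1.54, SE 0.35, adjusted p = 6.69e-04). None of these genes overlapped between the groups. *Cyp51* measured 54.3, 52.4 and 33.9 against 15.9, 13.99, 26.8 and 12.3 CPM (log2 fold change 1.42, SE 0.25, adjusted p = 3.87e-05), and *Hmgcs1*, HMG-CoA synthase, measured 97.7, 82.9 and 67.6 against 45.2, 41.8, 43.3 and 45.2 CPM (log2 fold change 0.92, SE 0.19, adjusted p = 2.05e-04). *Lss*, lanosterol synthase, did not differ beyond the spread (44.1 ± 9.73 in FL and 51.5 ± 8.81 CPM, SD, n = 3 and 4).

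*Acss2* was the only member that was lower in the fetal cells. It measured 12.9, 12.6 and 12.8 CPM in the FL samples and 34.8, 47.4, 66.5 and 63.8 in AL 7R- ILC1s (log2 fold change -2.06, SE 0.21, adjusted p = 4.08e-09), and every other sample of the series was above the FL samples. *Acly*, the other source of acetyl-CoA in the set, was slightly higher in FL (0.36, adjusted p = 0.0106). *Acly* did not pass without AL 7R- replicate 1 (0.27, adjusted p = 0.0822) or without FL replicate 1 (0.23, adjusted p = 0.14), and *Insig1* did not pass without AL 7R- replicate 1 (0.40, adjusted p = 0.0803).

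Against the mean of the 7 adult groups, 17 of the 30 genes were higher in FL G1-ILCs and 2 lower, with 26.2% of all genes higher and 20.4% lower. Every FL sample exceeded every adult sample for 6 of these genes and for 11.1% of all genes, and the 6 were *Scd2* (2.89), *Fads1* (1.68), *Pmvk* (1.89), *Fasn* (1.39), *Acaca* (0.93) and *Srebf1* (0.91, log2). *Acss2* was lower by the same measure (log2 fold change -2.83, SE 0.19, adjusted p = 1.13e-12). *Dgat1* was also lower (-1.65, adjusted p = 2.50e-13), against a mean that includes LPL and SG, and its FL samples overlapped with those of the liver and marrow groups. *Srebf1* itself measured 208, 204 and 191 CPM in the FL samples, and the highest group mean among the adults was 144 in SG. The call of *Elovl6* was lost without any 1 of 18 of the 24 samples (log2 0.22 to 0.30, adjusted p up to 0.238) and held without each of the others, AL 7R- replicate 2, BM NK replicate 2, FL replicate 4, LPL replicates 3 and 4 and SG replicate 2. For *Lss* the sample was FL replicate 4 (0.35, adjusted p = 0.187) or FL replicates 2 and 3 (0.51, adjusted p = 0.0534). For *Dhcr7* it was FL replicates 2 and 3 (0.40, adjusted p = 0.153) or FL replicate 1 (0.53, adjusted p = 0.0573), and for *Srebf2* FL replicate 1 (0.26, adjusted p = 0.0857).

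Other genes of lipid metabolism were read from fixed lists. Of all tested genes, 22.4% were higher and 20% lower in FL than in AL 7R- ILC1s, and the list counts were not tested against these shares. Of 8 further sterol synthesis genes, 3 had higher and 1 lower RNA in FL than in AL 7R- ILC1s. Of 10 genes of sterol efflux, storage and LXR, none was higher and 5 were lower. *Abca1*, the cholesterol exporter (-1.72), and *Soat1*, which esterifies cholesterol (-1.41, log2), were among them. Of the other lists, 5 genes were higher and 2 lower of 12 tested for fatty acid synthesis, 4 higher and 2 lower of 14 for activation and glycerolipids, and 5 higher and 3 lower of 12 for fatty acid oxidation. Among them, the elongase *Elovl7* (9.56 against 0.161 CPM, 3 counts over the 4 AL 7R- samples), the lipid droplet protein *Plin3* (log2 fold change 4.44) and the acyl-CoA synthetase *Acsl3* (2.73) were higher, and *Acss1*, the mitochondrial counterpart of *Acss2* (-1.81), and *Cpt1a*, which admits fatty acids to mitochondria (-1.54, log2), were lower.

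Proliferation genes moved with the fetal group. All 18 on the list were higher in FL than in AL 7R- ILC1s, and their summed level was 7283 to 8074 CPM in the FL samples and 594 to 3170 in all others. None of the 18 was at 0 in FL. The 7 erythroid markers were all higher in FL than in the adult mean, and 3 were higher than in AL 7R- ILC1s. They summed to 23.95 to 203 CPM in FL, 0.503 to 339.8 in AL 7R- ILC1s and 0.619 to 162 in the other adult samples. Of the macrophage and neutrophil markers 3 of 9 tested were higher in FL than in AL 7R- ILC1s, with sums of 57.6 to 199 and of 12.4 to 46.5 CPM. The part of these cells and of proliferation in the lipid gene values was not tested.

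**Figure D3:**
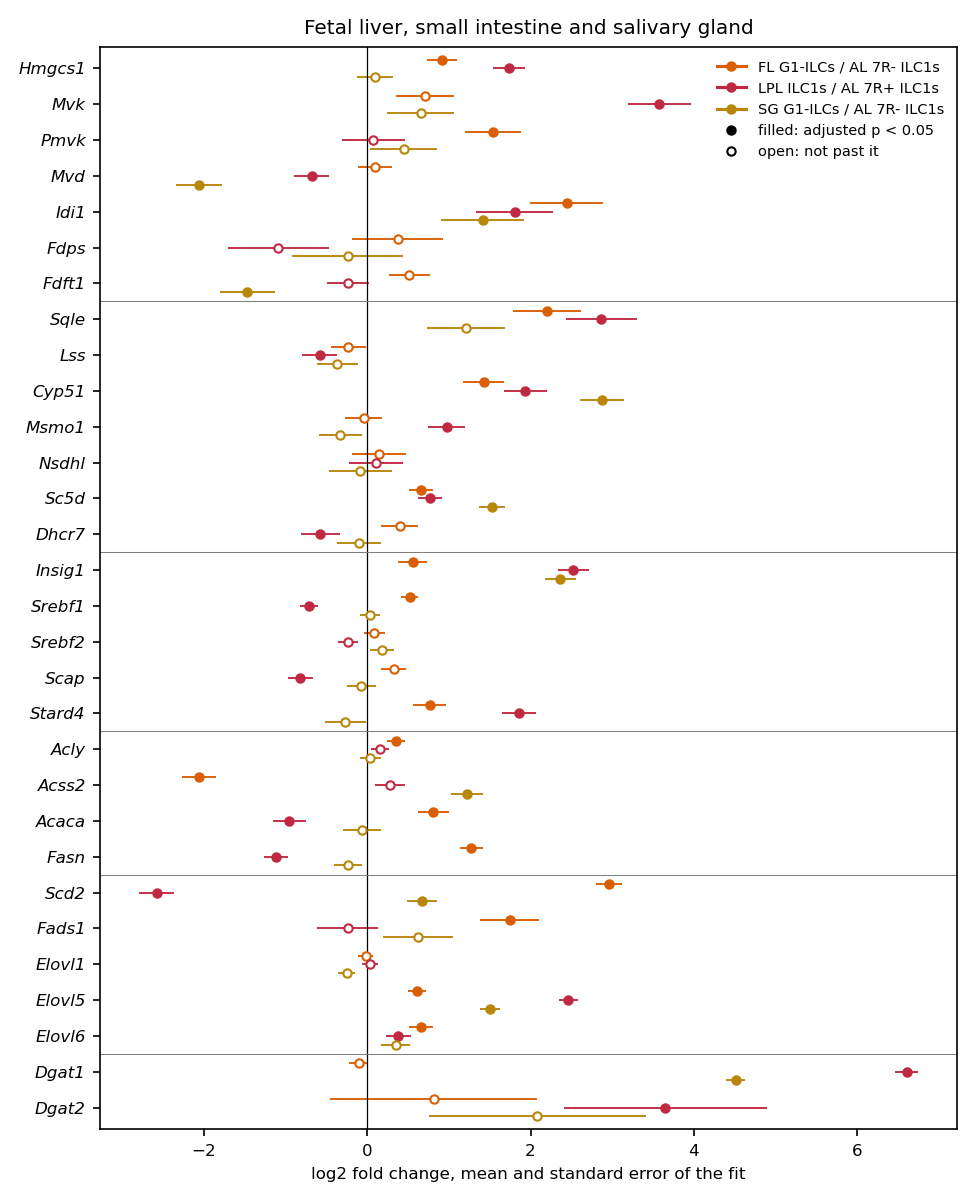
Log2 fold change ± SE of each tested gene in FL G1-ILCs against AL 7R- ILC1s, LPL ILC1s against AL 7R+ ILC1s and SG G1-ILCs against AL 7R- ILC1s, with filled points for adjusted p below 0.05. Each comparison has its own colour. *Scd2* is at 2.96 in the fetal and at -2.58 in the intestinal comparison, and *Dgat1* is at 6.60 in the intestinal and 4.51 in the salivary one.

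LPL ILC1s were compared with AL 7R+ ILC1s, since both are IL-7R+. Of the 30 genes 13 were higher and 8 lower, where 24.6% of all genes were higher and 26.1% lower, and the median of the genes was 0.13. By role, 3 genes were higher and 1 lower of 7 from HMG-CoA to squalene, 4 higher and 2 lower of 7 from squalene to sterol, and 2 higher and 2 lower of the 5 regulators and carriers. Of the 4 enzymes of acetyl-CoA and fatty acid synthesis 2 were lower, of the 5 elongases and desaturases tested 2 were higher and 1 lower, and both triglyceride genes were higher. Without overlap between the groups, 13 were higher and 7 lower, where 21.9% of all genes were called higher and 22.1% lower without overlap.

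*Dgat1* (ENSMUSG00000022555, chromosome 15, 76502015 to 76511953, minus strand, GRCm38) measured 6236, 5329, 4996 and 6239 CPM in the LPL samples and 59.8, 58.3 and 57.7 in AL 7R+ ILC1s (log2 fold change 6.60, SE 0.14, adjusted p = 9.74e-24). No LPL sample came near any liver or marrow sample, whose group means were 44.1 to 72.3 CPM. No exon base of *Dgat1* is shared with another gene model, and none of its 50-base words recurs in another gene. *Dgat2* was also called (log2 fold change 3.65, SE 1.25, adjusted p = 0.016), on 46 counts in 4 LPL samples and 4 counts in AL 7R+ ILC1s. Without AL 7R+ replicate 2 (3.20, adjusted p = 0.0618) or replicate 3 (3.24, adjusted p = 0.0709), *Dgat2* did not pass.

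*Elovl5*, which lengthens polyunsaturated fatty acids, measured 520.0, 538, 586 and 625 CPM in LPL and 88.5, 105 and 115 in AL 7R+ ILC1s (log2 fold change 2.46, SE 0.11, adjusted p = 2.02e-16). *Mvk* measured 29.2, 51.3, 52.6 and 54.6 against 3.92, 3.31 and 4.38 CPM (log2 fold change 3.58, SE 0.38, adjusted p = 8.68e-09). *Sqle* measured 82.5, 71.1, 35.1 and 48.5 against 12.0, 3.53 and 8.64 CPM (log2 fold change 2.87, SE 0.44, adjusted p = 3.44e-06). The LPL samples spread more for *Mvk* and *Sqle* than for *Elovl5*, but no LPL sample reached down to a liver sample. *Insig1*, the sterol-regulated retention protein, measured 76.4, 106, 92.5 and 84.2 against 18.2, 14.1 and 14.5 CPM (log2 fold change 2.53, SE 0.19, adjusted p = 4.73e-12). *Stard4*, a cytosolic sterol carrier, measured 137, 124, 113 and 131 against 34.5, 28.9 and 40.4 CPM (log2 fold change 1.86, SE 0.21, adjusted p = 2.79e-08). *Cyp51* measured 72.9, 101, 70.1 and 126 against 16.3, 25.2 and 30.3 CPM (log2 fold change 1.94, SE 0.26, adjusted p = 4.89e-07). *Idi1* (1.80), *Hmgcs1* (1.74), *Msmo1*, the methylsterol oxidase (0.97), and *Sc5d*, a late sterol desaturase (0.77, log2), were higher as well.

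Against these, *Scd2* measured 4.37, 6.02, 3.81 and 10.2 CPM in LPL and 39.2, 35.8 and 34.9 in AL 7R+ ILC1s (log2 fold change -2.58, SE 0.21, adjusted p = 3.88e-11), and the LPL samples were the lowest of the series. *Fasn* measured 68.8, 48.2, 72.2 and 68.7 against 139, 155 and 126 CPM (log2 fold change -1.12, SE 0.15, adjusted p = 4.28e-07). *Acaca* measured 13.1, 11.2, 15.2 and 16.3 against 29.5, 23.8 and 27.9 CPM (log2 fold change -0.95, SE 0.21, adjusted p = 3.44e-04), although 30.4% of its 50-base words recur in other genes. *Srebf1* measured 84.3, 67.7, 71.9 and 94.7 against 145, 111 and 134 CPM (log2 fold change -0.71, SE 0.11, adjusted p = 4.88e-06), and *Scap*, the SREBP escort, was lower too (-0.82, adjusted p = 6.69e-05). *Srebf2* did not pass (174 ± 26.6 in LPL and 205 ± 9.10 CPM in AL 7R+ ILC1s, SD, n = 4 and 3). In the first part of the sterol route, *Mvd*, mevalonate diphosphate decarboxylase, was lower (log2 fold change -0.68, SE 0.22, adjusted p = 0.0103), and after squalene so were *Lss* (-0.58) and *Dhcr7*, the reductase that ends one branch to cholesterol (-0.58, log2).

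*Mvd* did not pass without AL 7R+ replicate 1 (-0.56, adjusted p = 0.063). The call of *Lss* was lost without AL 7R+ replicate 3 or LPL replicates 2 or 3 (log2 -0.51 to -0.42, adjusted p up to 0.168). The call of *Dhcr7* was lost without AL 7R+ replicate 3 or LPL replicates 1, 3 or 4 (log2 -0.60 to -0.29, adjusted p up to 0.38). With DESeq2, neither *Lss* (-0.51, adjusted p = 0.0572) nor *Dhcr7* (-0.52, adjusted p = 0.0675) passed. Of 8 alternative processing settings, DESeq2 among them, *Lss* kept its call in 4 and *Dhcr7* in 2. The call of *Elovl6* (higher by 0.38 on the log2 scale) was lost without AL 7R+ replicates 1, 2 or 3 or LPL replicates 3 or 4 (log2 0.31 to 0.41, adjusted p up to 0.121).

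On the fixed lists, 4 of 8 further sterol synthesis genes were higher and 1 lower in LPL ILC1s. Of all genes, 24.6% were higher and 26.1% lower than in AL 7R+ ILC1s. Of the 10 efflux, storage and LXR genes 2 were higher and 4 lower, including *Abca1* (-1.65), and *Mylip*, a ubiquitin ligase induced by LXR, was lower (-1.93, log2). The droplet protein *Plin2* (2.16), the mitochondrial carnitine carrier *Slc25a20* (1.63) and *Hacd3*, a dehydratase of fatty acid elongation (1.68), were higher, and *Agpat2*, an acyltransferase of glycerolipid synthesis (-1.65, log2), was lower.

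The dissociation stress list moved with LPL and SG samples. All 12 of its genes were higher in LPL ILC1s and in SG G1-ILCs than in their liver references, and the summed level was 20091 to 25065 CPM in LPL, 17190 to 18996 in SG and 659 to 1340 in all other samples. The 12 hepatocyte markers summed to 101 to 163 CPM in LPL and to at most 29.9 elsewhere. Enterocyte markers summed to 66.1 to 120 CPM in LPL, 32.8 to 36.2 in AL 7R+ and 95.2 to 151 in AL 7R- ILC1s. Intestinal libraries also had the lowest TMM factors, 0.775 to 0.797 against 0.945 to 1.12. The part of these values in the lipid gene differences was not tested, and the gates of the 2 groups differ, as does the tissue. Cell preparation differed as well. By the study's methods, intestine and salivary gland were digested with collagenase and DNase, the intestine after a step in EDTA. Liver was dissociated mechanically and marrow was flushed out, with no enzyme step described. Tissue and preparation therefore cannot be separated in the LPL and SG comparisons with liver cells.

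SG G1-ILCs were compared with AL 7R- ILC1s, which also served as the reference for FL G1-ILCs, so these comparisons share the 4 AL 7R- samples. In SG, 8 of the 30 genes were higher and 2 lower, where 17.8% of all genes were higher and 14.6% lower, and all 10 were without overlap, where 17.5% of all genes were called higher and 14.2% lower without overlap. *Dgat1* measured 1247 and 1491 CPM in SG and 49.95, 63.9, 64.8 and 60.6 in AL 7R- ILC1s (log2 fold change 4.51, SE 0.12, adjusted p = 2.67e-21), between the LPL and the liver samples. *Cyp51* measured 114 and 142 against 15.9, 13.99, 26.8 and 12.3 CPM (log2 fold change 2.87, SE 0.27, adjusted p = 1.65e-09) and had its highest group mean here. *Insig1* measured 85.2 and 90.0 against 12.9, 16.7, 18.2 and 20.1 CPM (log2 fold change 2.36, SE 0.19, adjusted p = 5.12e-11), close to its level in LPL ILC1s. *Sc5d* (log2 fold change 1.53, SE 0.16, adjusted p = 1.41e-08) and *Elovl5* (log2 fold change 1.504, SE 0.12, adjusted p = 3.86e-11) were higher too.

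*Acss2* measured 136 and 114 CPM in SG against 34.8, 47.4, 66.5 and 63.8 (log2 fold change 1.23, SE 0.20, adjusted p = 1.31e-05). *Scd2* measured 64.3 and 77.3 CPM (log2 fold change 0.67, SE 0.18, adjusted p = 0.00507) and *Idi1* 12.7 and 13.4 CPM (log2 fold change 1.42, SE 0.51, adjusted p = 0.0332). *Scd2* did not pass without SG replicate 2 (0.53, adjusted p = 0.119), and *Idi1* did not pass without AL 7R- replicates 1 or 3 or SG replicates 1 or 2 (log2 1.20 to 1.45, adjusted p up to 0.142). The lower genes were *Mvd*, which measured 10.2 and 10.4 CPM against 36.8, 46.0, 47.2 and 41.0 (log2 fold change -2.06, SE 0.28, adjusted p = 1.07e-06), and *Fdft1*, squalene synthase, with 8.74 and 8.84 against 25.6, 27.1, 20.7 and 24.1 CPM (log2 fold change -1.47, SE 0.34, adjusted p = 0.00106). Both SG samples were below all other samples of the series for these genes, but the lowest BM NK samples were close, at 10.7 CPM for *Mvd* and 9.56 for *Fdft1*. Of the exon bases of *Fdft1*, 18.3% lie antisense to *Ctsb*, and reads there cannot be assigned by strand, which the library kit does not mark.

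In SG, 2 of the 8 further sterol synthesis genes were higher and none lower, where 17.8% of all genes were higher and 14.6% lower. *Apoe*, the lipoprotein that carries cholesterol, was higher (6.34), as were *Acsl3* (5.002) and *Npc1*, the lysosomal cholesterol exporter (1.58, log2). *Soat2* was lower (-1.76, log2). The 12 macrophage and neutrophil markers summed to 627 to 769 CPM in SG, and macrophages are rich in *Apoe*. Enterocyte markers summed to 841 to 979 CPM in SG, most of it from *Cdh1*. The part of these cells in the values was not tested, nor was that of the enzyme digestion of the salivary gland, a step not described for liver.

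**Figure D4:**
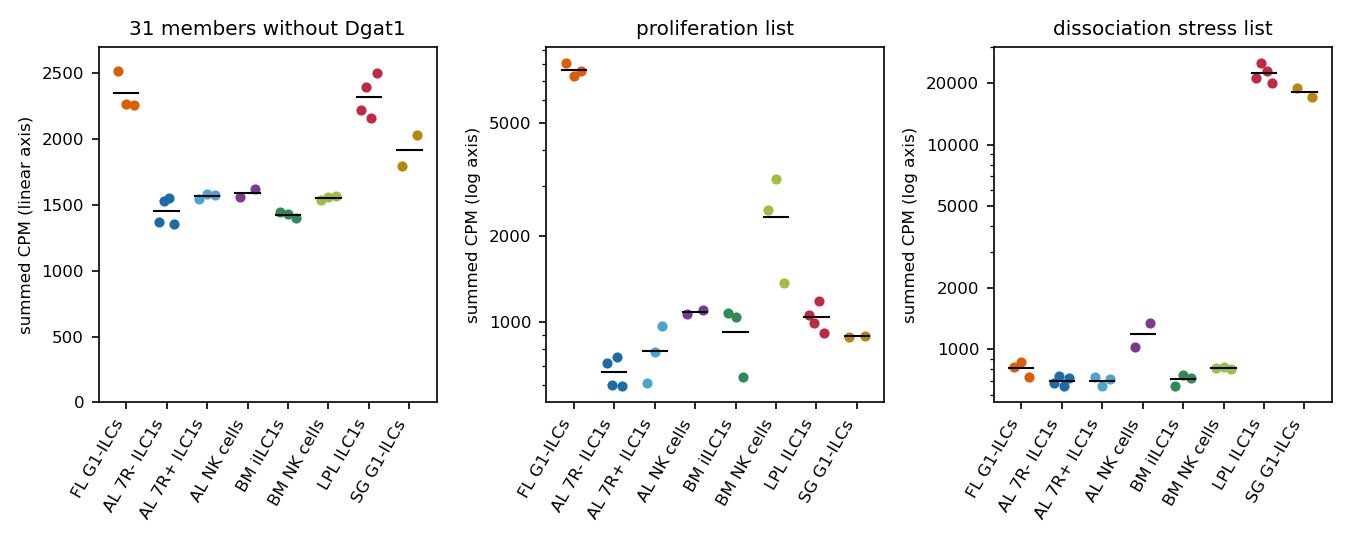
Summed CPM per sample by group of the lipid genes without *Dgat1* (31 genes, linear axis), the proliferation list and the dissociation stress list (both log axis), with the group mean as a bar. The lipid genes sum to means of 2348 in FL and 2322 in LPL against 1426 to 1593 in liver and marrow adults, the proliferation list is highest in FL, and the stress list in LPL and SG samples. *Elovl5* alone averages 567 CPM in LPL.

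Summed over all 32 genes, the LPL samples averaged 8021.5 CPM, the SG samples 3283 and the FL samples 2404, of which *Dgat1* was the larger part only in LPL. Without *Dgat1*, a sum chosen after the data were seen, FL averaged 2348, LPL 2322 and SG 1914 CPM, and the adult liver and marrow groups 1426 to 1593. *Elovl5* alone averaged 567 CPM in LPL, 237 in SG and 83.8 in AL 7R- ILC1s. In LPL against AL 7R+ ILC1s, 13 of the 30 genes were higher and 8 lower, with a median log2 fold change of 0.13.

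ILC1s and NK cells of the adult liver were compared to ask how the genes follow the ILC1 and NK cell identities. In AL 7R- ILC1s 5 of the 30 genes were higher than in AL NK cells and 7 lower, with 9.98% of all genes higher and 10.5% lower. In AL 7R+ ILC1s 6 were higher and 5 lower, with 8.05% and 7.70% of all genes. Both comparisons use the same 2 AL NK samples. Without overlap, the counts were 4 and 7 for 7R- cells, with 9.79% and 10.3% of all genes, and 6 and 5 for 7R+ cells, with 7.97% and 7.66%.

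*Srebf2* measured 62.4 and 79.1 CPM in AL NK cells, 136, 173, 191 and 146 in 7R- cells and 195, 205 and 213 in 7R+ cells of the liver. Both ILC1 groups lay above the NK cells (7R-, log2 fold change 1.20, SE 0.16, adjusted p = 9.11e-07, and 7R+, log2 fold change 1.54, SE 0.16, adjusted p = 3.33e-08). *Lss* measured 22.7 and 18.46 CPM in AL NK cells, 49.95, 53.9, 61.6 and 40.5 in 7R- and 42.5, 50.1 and 62.8 in 7R+ cells. It was higher in both (7R-, log2 fold change 1.32, SE 0.27, adjusted p = 4.13e-04, and 7R+, log2 fold change 1.33, SE 0.27, adjusted p = 7.42e-04). *Srebf1* was called in both as well (0.69 and 0.59), and so was *Stard4* (0.84 and 1.10, log2). *Mvd* was called for 7R- cells (log2 fold change 1.06, SE 0.25, adjusted p = 0.00253), and *Fads1* (log2 fold change 1.98, SE 0.50, adjusted p = 0.00537) and *Fdft1* (log2 fold change 1.13, SE 0.32, adjusted p = 0.015) for 7R+ cells.

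*Acss2* measured 163 and 158 CPM in AL NK cells, above all other samples, and 34.8, 47.4, 66.5 and 63.8 in 7R- and 67.5, 78.8 and 58.5 in 7R+ cells (7R-, log2 fold change -1.59, SE 0.19, adjusted p = 2.37e-07, and 7R+, log2 fold change -1.24, SE 0.21, adjusted p = 4.49e-05). *Scd2* measured 96.3 and 113 CPM in AL NK cells, 36.8, 49.6, 51.5 and 38.4 in 7R- and 39.2, 35.8 and 34.9 in 7R+ cells (7R-, log2 fold change -1.24, SE 0.18, adjusted p = 3.67e-06, and 7R+, log2 fold change -1.52, SE 0.19, adjusted p = 5.72e-07). *Elovl6* was lower in both ILC1 groups (-0.83 and -0.89), as were *Elovl1*, which elongates saturated chains to very long ones (-0.57 and -0.46), and *Acly* (-0.46 and -0.46, log2). *Sc5d* (-0.62) and *Scap* (-0.49, log2) were lower in AL 7R- ILC1s.

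With 2 AL NK samples, several calls rested on one of them. Without AL NK replicate 1, *Mvd* (0.62, adjusted p = 0.207), *Sc5d* (-0.48, adjusted p = 0.173), *Stard4* (0.64, adjusted p = 0.264) and *Scap* (-0.52, adjusted p = 0.154) did not pass for 7R- cells, nor *Srebf1* (0.53, adjusted p = 0.0586), *Stard4* (0.91, adjusted p = 0.111), *Fdft1* (1.32, adjusted p = 0.0596) and *Elovl1* (-0.36, adjusted p = 0.138) for 7R+ cells. Without AL NK replicate 2, *Fads1* (1.34, adjusted p = 0.164) and *Fdft1* (0.96, adjusted p = 0.182) did not pass for 7R+ cells, nor *Acly* for 7R- cells (-0.44, adjusted p = 0.0764). The call of *Acly* in AL 7R+ ILC1s was lost without AL 7R+ replicates 1 or 3 or AL NK replicates 1 or 2 (log2 -0.49 to -0.39, adjusted p up to 0.107). *Scap* and *Stard4* in AL 7R- ILC1s also missed without AL 7R- replicate 2 (-0.40, adjusted p = 0.113, and 0.71, adjusted p = 0.0594), *Scap* also without AL 7R- replicate 3 (-0.50, adjusted p = 0.0535).

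Outside the set, *Elovl7* averaged 65.1 CPM in AL NK cells, 0.161 in 7R- and 0.409 in 7R+ cells (3 and 7 counts over their samples), and was called lower in both. *Lpin1*, a phosphatidate phosphatase of glycerolipid synthesis, averaged 446 CPM in AL NK cells and was lower in both ILC1 groups (-4.17 and -3.53, log2). *Acsl3* (-4.15) and *Plin3* (-3.52) were lower in AL 7R- ILC1s, where 5 of 14 tested activation and glycerolipid genes were lower and 2 higher. Of all genes, 10.5% were lower and 9.98% higher in AL 7R- ILC1s than in AL NK cells. *Soat2*, a cholesterol acyltransferase, was higher in both (1.47 and 0.85, log2). Of the proliferation list 7 of 18 genes, and of the dissociation stress list 7 of 12, had lower RNA in 7R- cells than in NK cells of the liver. Their part in the values was not tested.

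**Figure D5:**
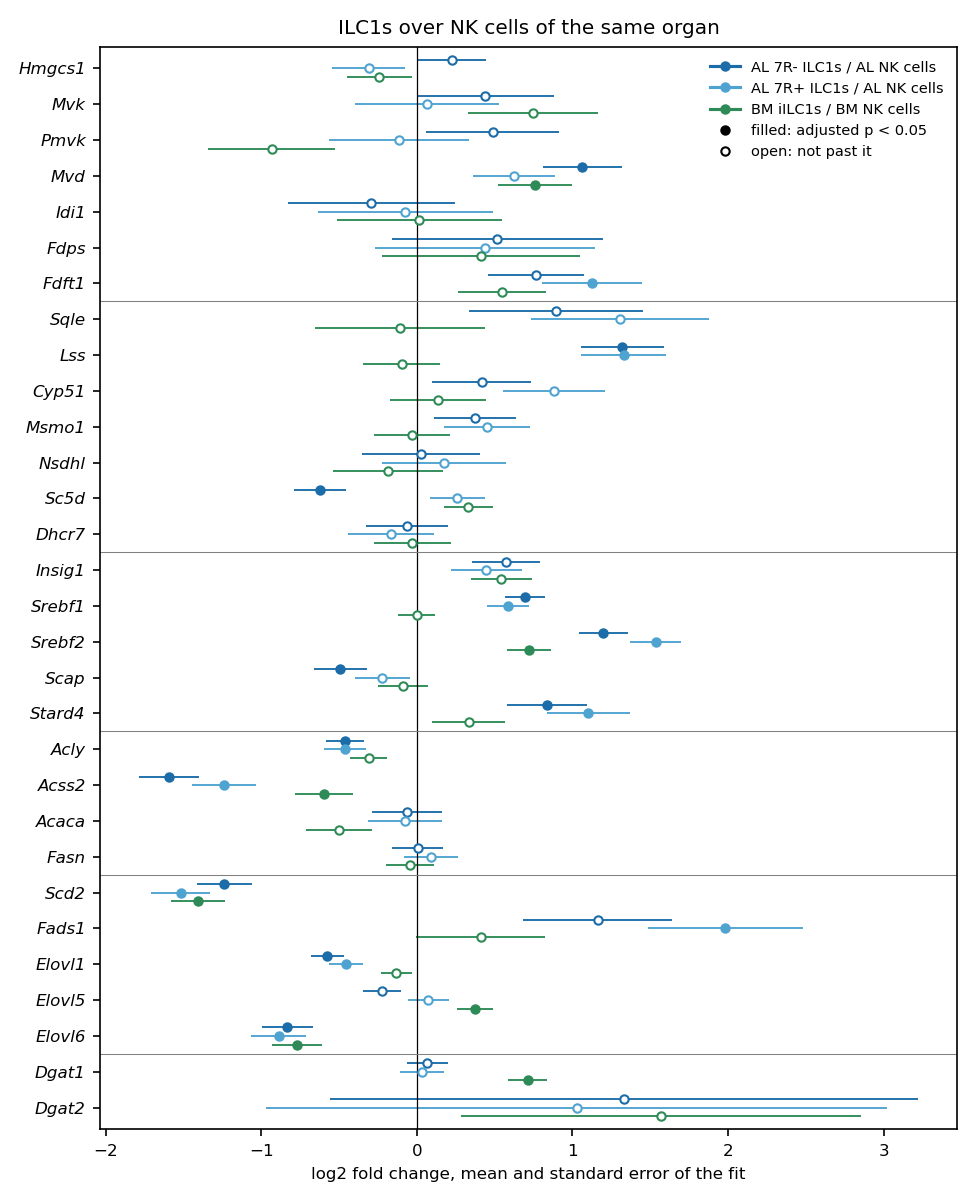
Log2 fold change ± SE of each tested gene in AL 7R- ILC1s and AL 7R+ ILC1s against AL NK cells and in BM iILC1s against BM NK cells, with filled points for adjusted p below 0.05. *Srebf2* is above 0 and *Scd2*, *Elovl6* and *Acss2* are below 0 with filled points in all 3 comparisons, and *Lss* is filled in the liver comparisons only.

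The liver ILC1 groups differed from each other at one member. AL 7R+ ILC1s were higher than AL 7R- ILC1s for 1 of 30 genes and lower for none, with 3.03% of all genes higher and 2.20% lower. This gene was *Sc5d*, which measured 82.3, 67.1 and 60.9 CPM in AL 7R+ and 41.3, 41.3, 39.5 and 29.4 in AL 7R- ILC1s without overlap (log2 fold change 0.88, SE 0.15, adjusted p = 1.82e-04). For *Srebf2*, the AL 7R+ samples (205 ± 9.10 CPM, SD, n = 3) all lay above the AL 7R- samples (162 ± 25.1 CPM, SD, n = 4), but the difference did not pass (log2 fold change 0.34, adjusted p = 0.145).

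In bone marrow, BM iILC1s were higher than BM NK cells for 4 of 30 genes and lower for 3, with 6.60% of all genes higher and 5.55% lower. *Scd2* measured 50.1, 45.4 and 52.1 CPM in BM iILC1s and 107, 149 and 135 in BM NK cells (log2 fold change -1.41, SE 0.17, adjusted p = 6.65e-07). *Elovl6* measured 33.4, 33.4 and 34.5 against 50.2, 62.5 and 60.1 CPM (log2 fold change -0.77, SE 0.16, adjusted p = 0.00108). *Srebf2* measured 133, 152 and 120.4 against 84.0, 87.1 and 74.5 CPM (log2 fold change 0.72, SE 0.14, adjusted p = 5.09e-04). The groups did not overlap for any of these. *Dgat1* was higher in BM iILC1s (log2 fold change 0.71, SE 0.13, adjusted p = 1.63e-04), at 67.5, 87.8 and 61.5 against 48.2, 43.7 and 40.3 CPM. *Mvd* (0.76) and *Elovl5* (0.38) were higher and *Acss2* lower (-0.60, log2), but the call of *Mvd* was lost without BM iILC1 replicates 1, 2 or 3 or BM NK replicates 1 or 3 (log2 0.64 to 0.80, adjusted p up to 0.135). The call of *Elovl5* was lost without BM iILC1 replicates 1 or 3 or BM NK replicates 2 or 3 (log2 0.29 to 0.39, adjusted p up to 0.206), and that of *Acss2* without BM iILC1 replicates 1 or 2 or BM NK replicates 1, 2 or 3 (log2 -0.64 to -0.48, adjusted p up to 0.179).

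All 18 proliferation genes were lower in BM iILC1s than in BM NK cells, and macrophage and neutrophil markers summed to 229 to 1495 CPM in BM iILC1s. *Apoe* was higher in BM iILC1s (3.72), and *Lpin1* (-1.51) and *Npc1* (-0.93, log2) were lower. The part of cell division or of myeloid RNA in the values was not tested.

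Marrow and liver were compared for NK cells and for IL-7R+ liver ILC1s and marrow iILC1s. BM NK cells were higher than AL NK cells for none of the 30 and lower for 1, with 0.998% of all genes higher and 1.6% lower. The gene was *Elovl1*, at 121, 107 and 104 CPM in BM NK and 176 and 153 in AL NK cells (log2 fold change -0.58, SE 0.11, adjusted p = 0.0023), and it did not pass without AL NK replicate 1 (-0.47, adjusted p = 0.14). BM iILC1s were higher than AL 7R+ ILC1s for none and lower for 4, with 4.19% of all genes higher and 3.92% lower, and the median of the 30 was -0.22.

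*Lss* measured 15.3, 17.3 and 21.8 CPM in BM iILC1s and 42.5, 50.1 and 62.8 in AL 7R+ ILC1s (log2 fold change -1.52, SE 0.24, adjusted p = 6.36e-05). *Srebf2* measured 133, 152 and 120.4 against 195, 205 and 213 CPM (log2 fold change -0.60, SE 0.14, adjusted p = 0.00447). Neither gene overlapped between marrow and liver ILC1s. *Cyp51* (log2 fold change -1.12, SE 0.29, adjusted p = 0.0125) and *Srebf1* (log2 fold change -0.46, SE 0.12, adjusted p = 0.0117) were the others. *Cyp51* did not pass without AL 7R+ replicate 3 (-0.90, adjusted p = 0.102) or BM iILC1 replicate 3 (-0.997, adjusted p = 0.073), and *Srebf1* did not without AL 7R+ replicate 1 (-0.37, adjusted p = 0.0923) or BM iILC1 replicate 3 (-0.41, adjusted p = 0.0672).

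Whether the step from NK cells to ILC1s differed between marrow and liver was tested directly, as the difference between BM iILC1s against BM NK cells and AL 7R+ ILC1s against AL NK cells, a test chosen after the data were seen. Of all genes 3.17% were called and of the 30 genes 3 were. *Lss* differed by -1.43 (SE 0.37, adjusted p = 0.025) and *Srebf2* by -0.81 (SE 0.21, adjusted p = 0.0265), both with the smaller step in marrow. *Dgat1* differed by 0.68 (SE 0.19, adjusted p = 0.0412), with the larger step in marrow. None of these calls held on leaving out each of the 11 samples in turn. The call of *Lss* was lost without AL 7R+ replicate 3, BM iILC1 replicates 1 or 2, BM NK replicate 3 or AL NK replicates 1 or 2 (log2 -1.599 to -1.26, adjusted p up to 0.153). The call of *Srebf2* was lost without AL 7R+ replicates 2 or 3, BM iILC1 replicates 1 or 3, BM NK replicates 1 or 2 or AL NK replicate 1 (log2 -0.81 to -0.66, adjusted p up to 0.251), and that of *Dgat1* without AL 7R+ replicates 1, 2 or 3, BM iILC1 replicate 2, BM NK replicates 2 or 3 or AL NK replicates 1 or 2 (log2 0.51 to 0.69, adjusted p up to 0.163). The *Scd2* and *Elovl6* differences were not called in this test (0.11, adjusted p = 0.932, and 0.12, adjusted p = 0.918).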

How the data were processed

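RNA of sorted cells was amplified with a SMART-seq HT kit, which does not mark strand. Per the labels about 2000 cells went into a library, whereas the study's methods give another number. The submitters' notes name fastp 0.23.0, HISAT2 2.1.0, featureCounts of Subread 1.6.5 and mm10. Annotation release, strand setting and treatment of multi-mapping reads are not given in the sources used here. The authors deposited raw counts per gene without normalization, for 46078 Ensembl ids, of which 935 had no name in GENCODE vM21 (0.104% of counts).

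Members and lists were chosen with earlier results of these data known. FL replicates 2 and 3, equal within sampling noise, were summed. All 8 groups entered one edgeR 4.0.16 quasi-likelihood fit (R 4.3.3, limma 3.58.1, TMM scaling, filterByExpr with a minimum count of 10, 14123 genes), with Benjamini-Hochberg adjustment over all tested genes and a threshold of 0.05. The procedure was tested on simulated data. Levels are TMM-scaled CPM (mean ± SD), and per kilobase of GENCODE exons only where genes are compared. Overlap means that the ranges of the groups' samples meet. Every member was named, and per comparison the called members with the largest fold change and no overlap were given in full, at most 8 per direction; pathway list genes were named at most 4 per direction. The marrow against liver difference and the sum without Dgat1 were added after the data were seen. Promoters came from RefSeq, exon overlaps and shared 50-base words from GENCODE vM21. Alternatives included other size factors, filters, equal depth, DESeq2 1.42.0 and leaving out each sample.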

Additional observations from a re-analysis of the deposited data

Results flagged for a closer look

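Each of the 32 genes was screened in the 2 groups with 4 samples, AL 7R- and LPL ILC1s (64 sets of values), and 3 samples stood apart by Dixon's criterion; chance flags about 1 in 20 such sets. *Mvk* was 29.2 CPM in LPL replicate 1, against 51.3 to 54.6 in the other LPL samples. *Sc5d* was 29.4 CPM in AL 7R- replicate 4, against 39.5 to 41.3 in the other AL 7R- samples. *Fasn* was 48.2 CPM in LPL replicate 2, against 68.7 to 72.2 in the other LPL samples.

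Of the 30 tested genes, 3 differed between marrow and liver in the ILC1 against NK cell difference, by a test of that difference, as did 3.17% of all genes. On leaving out each sample in turn the count was 0 to 2, and none of the 3 calls held throughout. The log2 difference, marrow minus liver, was -1.43 for *Lss*, -0.81 for *Srebf2* and 0.68 for *Dgat1*.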

How the results depend on the processing

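Of 1847 recomputations of 106 named fold changes, 1709 kept the call, 138 lost it and none changed direction, and 73 of the 106 were called under every alternative run. Of 219 recomputed counts of called genes, 195 stayed within 1.5 times the main count. When a fold change above 2 was also required, the counts were 8 for FL against AL 7R-, 9 for FL against the adult mean, 5 for AL 7R- and 7 for AL 7R+ against AL NK, 0 for AL 7R+ against AL 7R-, 1 for BM iILC1s against BM NK, 0 for BM against AL NK, 2 for BM iILC1s against AL 7R+, 12 for LPL against AL 7R+ and 1 for the marrow against liver difference. In SG against AL 7R-, every called gene but *Scd2* (log2 fold change 0.67) also passed this cut. Shares of all genes are not given for the recomputed counts in this section, so these counts only describe the set. For BM against AL NK the count was 0 with no filter and 2 when only those groups were fitted. With size factors by median ratio, LPL calls were 13 higher and 6 lower. With DESeq2, *Elovl6* in FL against the adult mean did not pass (0.23, adjusted p = 0.0943). It kept its call in 3 of 7 processing settings, and *Scap* in AL 7R- against AL NK in 4 of 8.

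On leaving out each sample in turn, the number of called genes was 27 to 28 over all groups, 15 to 17 for FL against AL 7R-, 16 to 19 for FL against the adult mean, 9 to 14 and 7 to 11 for AL 7R- and AL 7R+ against AL NK, 1 to 2 for AL 7R+ against AL 7R-, 4 to 5 for BM iILC1s against BM NK, 0 to 1 for BM against AL NK, 3 to 5 for BM iILC1s against AL 7R+, 17 to 20 for LPL against AL 7R+, 9 to 11 for SG against AL 7R- and 0 to 2 for the marrow against liver difference.

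Deviations from the group means, over all tested genes, showed no correlation between same-numbered samples of different groups (mean -0.00452, range -0.0819 to 0.0458, 74 pairs). With groups of 2 to 4 libraries this cannot exclude shared animals or sort days, and no pairing was used. With the replicate block over 25 libraries, 15 genes were higher and 1 lower for FL against AL 7R-, 13 and 7 for LPL against AL 7R+, 7 and 2 for SG against AL 7R-, and 2 differed between marrow and liver. The causes of these changes were not tested. Groups of 2 libraries (AL NK and SG) and genes of a few counts (*Dgat2*, *Fdps*) limit the precision.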
